A study of Mus musculus with 6 samples.

Results

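Cytosolic ribosomal protein genes encode the proteins that, with ribosomal RNA, build the 2 subunits of the ribosome. Proteins named Rps belong to the small 40S subunit, which reads the mRNA, and proteins named Rpl to the large 60S subunit, which joins amino acids. The Rplp proteins form the stalk of the large subunit, which recruits elongation factors. Many of these mRNAs start with a terminal oligopyrimidine (TOP) tract, a C followed by a run of pyrimidines, through which mTOR signalling controls their translation. Their mRNAs are abundant in most cells, and their genes have left many intronless processed pseudogenes in the mouse genome.

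Members were the rows of the count and TPM tables whose symbol follows the Rpl or Rps naming pattern, and 85 of 55401 rows did. The annotation gives 82 of them as protein coding. Rpl6l and Rpl32l are annotated as processed pseudogenes and Rps4l as a transcribed one. By name, 32 members belong to the 40S subunit, 50 to the 60S subunit outside the stalk, and 3 to the stalk (Rplp0, Rplp1 and Rplp2). Main forms numbered 76, and 9 were paralog forms such as Rpl3l or Rpl22l1. Rpl6l and Rpl32l were put among the paralog forms after the tables were opened.

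The RNA came from lymphatic endothelial cells (LECs), which line lymphatic vessels. They were sorted from the dura of wild-type mice as LYVE-1+ PDPN+ CD31+ CD45- cells. By the study's methods the mice were C57BL/6J males, and both groups received a viral vector (AAV) into the cerebrospinal fluid of the cisterna magna. AAV-VEGF-C encodes the lymphatic growth factor VEGF-C, and AAV-CTRL encodes a part of the receptor VEGFR-3 that does not bind it. Each group had 3 libraries from separately numbered experiments, and each library pooled the meninges of 10 to 12 mice, so no library is a single animal. In bulk RNA, fewer cells of a type and less RNA per cell cannot be told apart.

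Every AAV-VEGF-C library was shallower than every AAV-CTRL library (564475 to 3261935 against 6530269 to 12399498 counts), so depth and treatment cannot be told apart. All 9 LEC markers were detected in each library. Fibroblast markers (Dcn, Lum, Col1a1, Col1a2 and Pdgfra) held more counts than the LEC markers in all 6 libraries, at 5198 to 18998 against 834 to 3211 counts scaled to the library total (CPM, or counts per 1000000). These sums are not corrected for transcript length. In TPM, which is, the highest LEC marker, Ccl21a, was above the highest fibroblast marker, Col1a1, only in AAV-VEGF-C 1 (211 against 109 TPM). Of the 5 fibroblast markers 1, Dcn, passed the test as lower in AAV-VEGF-C. None of the markers of leukocytes (7), mural cells (5), blood endothelium (5) or red cells (4) passed. All 5 fibroblast, all 5 mural, all 5 blood endothelial and all 4 red cell markers nonetheless had negative log2 fold changes, with medians of -1.16, -0.93, -1.14 and -0.71, while the LEC markers had a median of 0.0062 with 4 of 9 negative. Summed levels of these lists overlapped between the groups: fibroblast markers held 8022 to 18998 CPM in AAV-CTRL against 5198 to 9858 CPM in AAV-VEGF-C, mural markers 517 to 1080 against 181 to 541 CPM, and blood endothelial markers 321 to 3342 against 462 to 898 CPM. Summed leukocyte markers stood at 83.3 and 88.2 CPM in the libraries of experiment 1 and at 1447 to 3771 CPM in the other 4. Olfactory, vomeronasal and taste receptor genes, keratin-associated proteins and defensins, which endothelium is not known to use, held 135 to 260 CPM in AAV-CTRL against 2693 to 6562 CPM in AAV-VEGF-C. Their part in the results below was not tested.

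The start of a ribosomal protein mRNA is where a TOP tract lies, so start sites were read from RefSeq (GRCm38.p6). Of the 85 members, 63 had an entry. At the annotated start base, 14 of the 63 (22.2%) had a C followed by at least 4 pyrimidines, against 3.01% of 27025 genes in the same table. Annotated starts can lie a few bases from the true start: with the tract allowed anywhere in the 30 bases around the start, a window chosen after the data were seen, the shares were 68.3% and 40.3%. Below are 30-base windows centred on the start for 3 members with the tract and for Rps7 and Rps2, the 2 members that passed the test below. Capitals mark the C and the pyrimidines after it, reading 5′ to 3′ on the strand of the gene.

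Rps6 (chr4:86857353-86857382, minus strand): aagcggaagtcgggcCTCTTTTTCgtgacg
Rps27 (chr3:90213634-90213663, minus strand): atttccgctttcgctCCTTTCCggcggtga
Rplp2 (chr7:141447636-141447665, plus strand): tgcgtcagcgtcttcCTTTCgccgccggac
Rps7 (chr12:28635939-28635968, minus strand): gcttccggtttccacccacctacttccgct
Rps2 (chr17:24720048-24720077, plus strand): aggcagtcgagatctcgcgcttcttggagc

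In the comparison of AAV-VEGF-C with AAV-CTRL, the 13 tested members with a tract at the annotated start had a median log2 fold change of -0.99. The 46 tested members of the table without it had a median of -0.94.

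Processed pseudogenes matter here because a read from a ribosomal protein mRNA can equal the sequence of a copy elsewhere in the genome. Alignment placed 1798 annotated pseudogenes on the coding sequence of a member, and 79 of the 85 members had at least 1, up to 154 for Rpl7a. For 24 of the 84 members with enough sequence for a read-length stretch, coding sequence or, for the 3 annotated pseudogenes, transcript, every 100-base stretch was found, letter for letter, in a transcript of another gene. For 10 members no stretch was. The pairs below show how alike a gene and its copy can be: each is a 100-base stretch of coding sequence, as long as a read, with the differing base in capitals.

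Rpl19: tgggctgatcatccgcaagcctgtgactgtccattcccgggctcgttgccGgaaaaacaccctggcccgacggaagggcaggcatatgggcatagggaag
Rpl19-ps11: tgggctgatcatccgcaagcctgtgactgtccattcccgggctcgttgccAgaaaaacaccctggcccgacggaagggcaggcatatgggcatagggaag
Rpl3: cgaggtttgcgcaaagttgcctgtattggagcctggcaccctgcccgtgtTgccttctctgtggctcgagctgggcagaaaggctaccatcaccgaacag
Rpl3-ps1: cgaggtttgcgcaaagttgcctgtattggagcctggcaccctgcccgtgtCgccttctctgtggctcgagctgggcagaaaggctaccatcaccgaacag
Rpsa: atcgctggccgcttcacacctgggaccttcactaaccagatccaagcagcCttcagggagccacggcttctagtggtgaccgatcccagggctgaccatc
Rpsa-ps10: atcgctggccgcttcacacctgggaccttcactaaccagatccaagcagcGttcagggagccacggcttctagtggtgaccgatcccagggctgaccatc

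Rpl19 differs from Rpl19-ps11 at 1 of 588 coding bases, and over the 6 libraries the row of the gene held 3788 counts and that of the copy 4915. Rpl3 differs from Rpl3-ps1 at 2 of 1209 bases (4855 and 3880 counts). Rpsa differs from Rpsa-ps10 at 6 of 885 bases (11928 and 3247 counts). Rps6 and Rps6-ps4 share all 747 coding bases, and the copy was given 6037 counts against 1822 for the gene. Rpl5 and Gm15500 share all 891, with 6744 counts in the copy and 1665 in the gene. The row of a member is thus a share of its family set by the authors' estimate, and 22 of the 85 members held under 50% of the counts of their family.

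Levels were compared between genes in TPM, which divides by transcript length. The most abundant members in AAV-CTRL were Rpl13a of the large subunit (398, 472 and 798 TPM in libraries 1, 2 and 3), the stalk protein gene Rplp1 (294, 498 and 773 TPM) and Rpl26 (223, 417 and 636 TPM). Small-subunit members with high levels included Rps24 (137, 174 and 496 TPM) and Rpsa, which also encodes the laminin receptor (164, 226 and 296 TPM). All 5 were highest in AAV-CTRL 3. Of the 84 neighbouring pairs in the order of mean level, 2 were further apart than the larger of their SDs over the 3 libraries.

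In AAV-VEGF-C the same genes were lower in TPM. Rpl13a was at 61.9, 156 and 229 TPM in libraries 1, 2 and 3, and Rplp1 at 34.5, 167 and 235 TPM. Rpl26 was at 14.9, 106 and 177 TPM, Rps24 at 14.0, 58.1 and 69.4 TPM, and Rpsa at 18.6, 61.3 and 115 TPM. All 3 AAV-VEGF-C libraries were below all 3 AAV-CTRL libraries for these 5 genes, with AAV-VEGF-C 1 the lowest. Of the 81 members tested, 71 did not overlap in TPM, all lower in AAV-VEGF-C, against 36.4% of all 17459 genes tested.

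**Figure D1:**
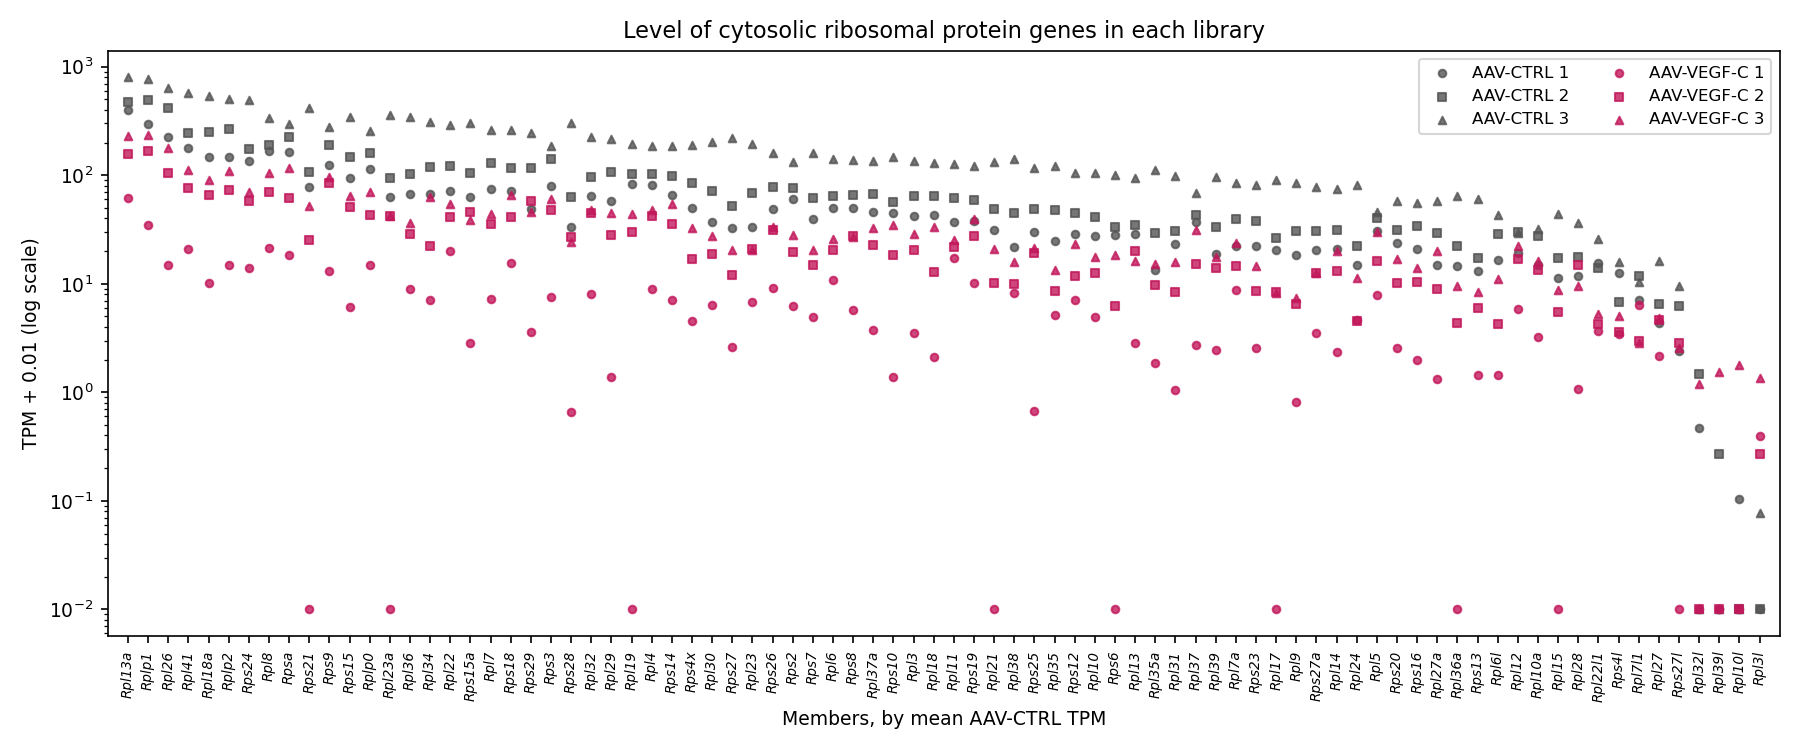
TPM (plus 0.01, log scale) of the members drawn, ordered by mean AAV-CTRL level; each point is 1 library, grey for AAV-CTRL and pink for AAV-VEGF-C, with a marker per experiment number. AAV-VEGF-C 1 is lowest for most members, and points on the bottom line are listed at 0.

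The order of the main forms was alike in 5 libraries. Across the 76 main forms, which are not independent replicates and share depth within a library, Spearman's rho with the mean of the AAV-CTRL libraries (the other 2 for an AAV-CTRL library) was 0.94, 0.96 and 0.92 in AAV-CTRL against 0.57, 0.89 and 0.90 in AAV-VEGF-C 1, 2 and 3. AAV-VEGF-C 1 had a median of 8.13 counts per main form, against 53.0 and 127 in the other two AAV-VEGF-C libraries and 276 to 1147 in AAV-CTRL. Of the members, 12 were listed at 0 there, and 8 of them were main forms (Rps6, Rps21, Rpl15, Rpl17, Rpl19, Rpl21, Rpl23a and Rpl36a). A count of 0 allows up to 5.31 CPM in that library, and a value listed at 0 can also come from the split between a gene and its copies. No main form was at 0 in the other 5 libraries. The median TPM of the small-subunit genes over that of the large-subunit and stalk genes was 1.33, 1.22 and 1.19 in AAV-CTRL against 0.94, 1.41 and 1.23 in AAV-VEGF-C, with overlap between the groups.

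The summed share of the members was taken next, since it does not depend on how counts are split between members, although it does depend on the split between members and pseudogenes. The members held 5249, 7105 and 10240 CPM in AAV-CTRL 1, 2 and 3 (95% Wilson intervals 5194 to 5305, 7047 to 7164 and 10184 to 10296). They held 1657, 3961 and 4758 CPM in AAV-VEGF-C 1, 2 and 3 (1554 to 1766, 3860 to 4065 and 4684 to 4834). The intervals cover counting error only. All 3 AAV-VEGF-C libraries were below all 3 AAV-CTRL libraries, at 3459 ± 1610 against 7531 ± 2523 CPM (SD, n = 3), a ratio of 0.459. Within experiments 1, 2 and 3 the ratio was 0.316, 0.557 and 0.465. With the aligned pseudogenes added the groups overlapped: the sum was 8174, 10980 and 13827 CPM in AAV-CTRL against 3895, 7061 and 8951 CPM in AAV-VEGF-C, with AAV-VEGF-C 3 above AAV-CTRL 1, and the ratio of means was 0.604 (0.476, 0.643 and 0.647 within experiments). In both groups the library with more counts held the larger share, so the order over the 3 libraries of a group followed depth.

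Each class of members had about the same ratio. Summed CPM of the 40S members was 2789 ± 966 in AAV-CTRL against 1301 ± 630 in AAV-VEGF-C (ratio 0.467), that of the 60S members outside the stalk 3935 ± 1387 and 1762 ± 784 (0.448), and that of the stalk genes 808 ± 185 and 396 ± 198 (0.49; SD, n = 3 in each). None of the 3 classes overlapped between the groups. With the mitochondrially encoded genes and the abundant transcript CT010467.1 left out of the total, the ratio for all members was 0.501. CT010467.1 itself held 12.3%, 13.4% and 1.98% of counts in AAV-CTRL 1, 2 and 3 (mean 9.22%) against 23.1%, 18.1% and 16.4% in AAV-VEGF-C 1, 2 and 3 (mean 19.2%). Mitochondrially encoded genes held 4.58% on average in AAV-CTRL against 1.95% in AAV-VEGF-C, a ratio of 0.426, overlapping.

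The aligned pseudogenes did not follow the members as a whole. Together they held 2926, 3874 and 3587 CPM in AAV-CTRL against 2238, 3100 and 4192 CPM in AAV-VEGF-C, overlapping, with a ratio of means of 0.918. Split by identity to the coding sequence, a split chosen after the data were seen, the 121 copies at 99% or more held 2858 ± 505 CPM in AAV-CTRL against 1780 ± 620 CPM in AAV-VEGF-C (ratio 0.623, overlapping). The 462 copies from 95% to under 99% held 512 ± 133 and 766 ± 230 CPM (1.495, overlapping). The 1215 copies under 95% held 92.3 ± 27.5 and 631 ± 182 CPM (6.83), with all AAV-VEGF-C libraries above all AAV-CTRL libraries (SD, n = 3 in each). The less a class of copies resembled its parents, the higher its ratio, and the receptor, keratin-associated and defensin families named above had a ratio of 23.1. As a share of the counts of members and pseudogenes together, members held 64.2%, 64.7% and 74.1% in AAV-CTRL 1, 2 and 3 against 42.5%, 56.1% and 53.2% in AAV-VEGF-C 1, 2 and 3.

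**Figure D2:**
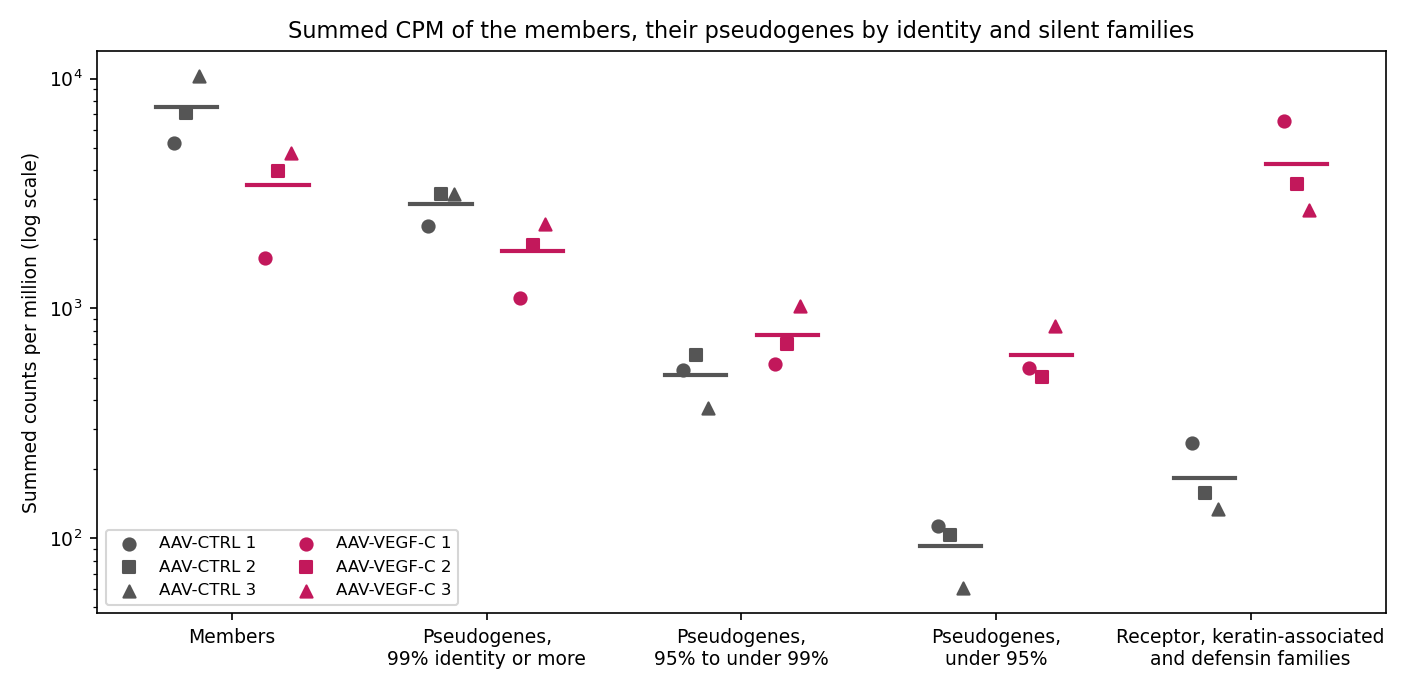
Summed CPM (log scale) of the members, of their aligned pseudogenes in 3 classes of identity, and of gene families endothelium is not known to use; points are libraries and lines are group means. The members sit lower in AAV-VEGF-C, and pseudogenes under 95% identity sit higher, at 501 to 838 against 61.0 to 113 CPM.

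Gene by gene, 81 of the 85 members passed the filter on low counts and were tested with edgeR across all genes. Of these, 2 had an adjusted p under 0.05 and both were lower in AAV-VEGF-C, against 0.659% of the 17459 genes tested that were called lower. No member was called higher, against 10.5%. A negative log2 fold change was found for 79 of the 81 members and for 50.2% of all genes, and at an unadjusted p under 0.05 there were 37 members lower, against 9.11% of all genes. In normalised CPM, 53 members did not overlap between the groups, all lower in AAV-VEGF-C, against 17.6% of all genes. With the aligned pseudogenes added 34 did not overlap, and the share of all genes was not counted for that step. The log2 fold changes of the members had a median of -0.998, and those of all genes tested -0.0037. The fibroblast, mural and blood endothelial marker lists given above had medians close to that of the members, and the part of other cell types in the members' values was not tested. Abundant genes lay below the median of all genes. Their median was -0.41 over the 7234 tested genes whose TPM averaged 5 or more, and -0.45 over the 702 averaging 50 or more. Of the 7234, 5495 had a negative log2 fold change, and 2408 were lower in AAV-VEGF-C without overlap. Of the 702, 436 were negative and 241 were lower without overlap. The tested members had a median AAV-CTRL level of 83.5 TPM, against 4.78 TPM for all genes tested. With all libraries drawn down to the smallest total, 72 members were tested, with a median of -0.562 against -0.0081 for all genes.

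The spread of the log2 fold changes over the members was read next. From the lower to the upper quartile they ran from -1.25 to -0.74. The standard errors ran from 0.27 to 0.86 with a median of 0.42. Differences between members were not tested. The median was -0.91 for the 32 tested 40S members, -1.02 for the 46 tested 60S members and -0.999 for the stalk.

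The 2 members that passed were both of the small subunit. Rps7 lies on chromosome 12 (28630854 to 28635953, minus strand, GRCm38), and its protein is known for binding MDM2, the regulator of p53. It was at 58.8, 78.7 and 130 normalised CPM in AAV-CTRL 1, 2 and 3 and at 23.1, 30.1 and 35.9 in AAV-VEGF-C, without overlap. Its log2 fold change was -1.56 ± 0.37 (SE) with an adjusted p of 0.0367. With its 26 aligned pseudogenes added the groups also did not overlap, but the call was lost (-0.72 ± 0.30, adjusted p = 0.167). It passed without AAV-CTRL 1 (adjusted p = 0.0395) and did not pass without any 1 of the other 5 libraries (0.0762 to 0.0897).

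Rps2 encodes a protein near the mRNA entry channel and lies on chromosome 17 (24718116 to 24721929, plus strand), where it overlaps 1 annotated gene on its strand and 2 on the other. It was at 108, 118 and 127 normalised CPM in AAV-CTRL and at 34.7, 54.5 and 59.8 in AAV-VEGF-C, also without overlap. The log2 fold change was -1.22 ± 0.29 (SE) with an adjusted p of 0.0358. Its direction turned with the pseudogenes: the 90 aligned to it held 37.4, 42.7 and 31.1 CPM in AAV-CTRL against 106, 92.4 and 156 CPM in AAV-VEGF-C, and with them added Rps2 moved to 0.20 ± 0.26 on the log2 scale (adjusted p = 0.652). The copies of Rps2 were not split by identity. With any 1 of the 6 libraries left out, the own row of Rps2 did not pass (adjusted p = 0.0536 to 0.0929).

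The experiment number of the labels was also used as a block. In that fit 27 members had an adjusted p under 0.05, all lower in AAV-VEGF-C, against 2.07% of all genes called lower. They comprised 9 of the 40S subunit, 16 of the 60S subunit and 2 of the stalk. Rpl9, whose protein sits at the base of the stalk, was at 25.2, 37.4 and 57.7 normalised CPM in AAV-CTRL and at 2.31, 10.8 and 15.8 in AAV-VEGF-C (blocked log2 fold change -2.03 ± 0.37, adjusted p = 0.0106; adjusted p = 0.0651 without the block). Rps4x, an X-linked 40S gene, was at 78.8, 119 and 165 in AAV-CTRL and at 23.1, 40.1 and 58.4 in AAV-VEGF-C (blocked -1.59 ± 0.28, adjusted p = 0.00881; 0.0552 without the block). Neither gene overlapped between the groups. Of the most abundant members named above, Rpl26 (-1.21 ± 0.34, adjusted p = 0.0427) and Rps24 (-1.19 ± 0.29, adjusted p = 0.0283) passed with the block, and Rpl13a, Rplp1 and Rpsa did not (0.085, 0.137 and 0.0747). Rps7 (adjusted p = 0.0112) and Rps2 (0.02) were among the 27. With aligned pseudogenes added, 7 members passed in the blocked fit, against 2.1% of genes called lower: Rps21, Rps23, Rplp2, Rpl4, Rpl6l, Rpl14 and Rpl41.

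The number of members called depended on the fit more than their direction did. DESeq2, the tool of the study's methods, called 19 members lower, against 1.72% of its genes, and 1 higher, against 19.4%. Without a filter on low counts edgeR called 46 lower and 2 higher, against 2.64% and 21.1% of all genes. voom with sample weights called 6 lower, against 1.53%, and the block without the first experiment 35, against 2.35%. That blocked fit used fewer libraries and leaned more on spread shared across genes, so its larger count is not stronger replication. Leaving out AAV-CTRL 1 gave 6 lower, against 0.264%. limma on log2(TPM + 1) called none, against 0.00573%, and 17 lower with a mean-variance trend, against 2.49%.

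**Figure D3:**
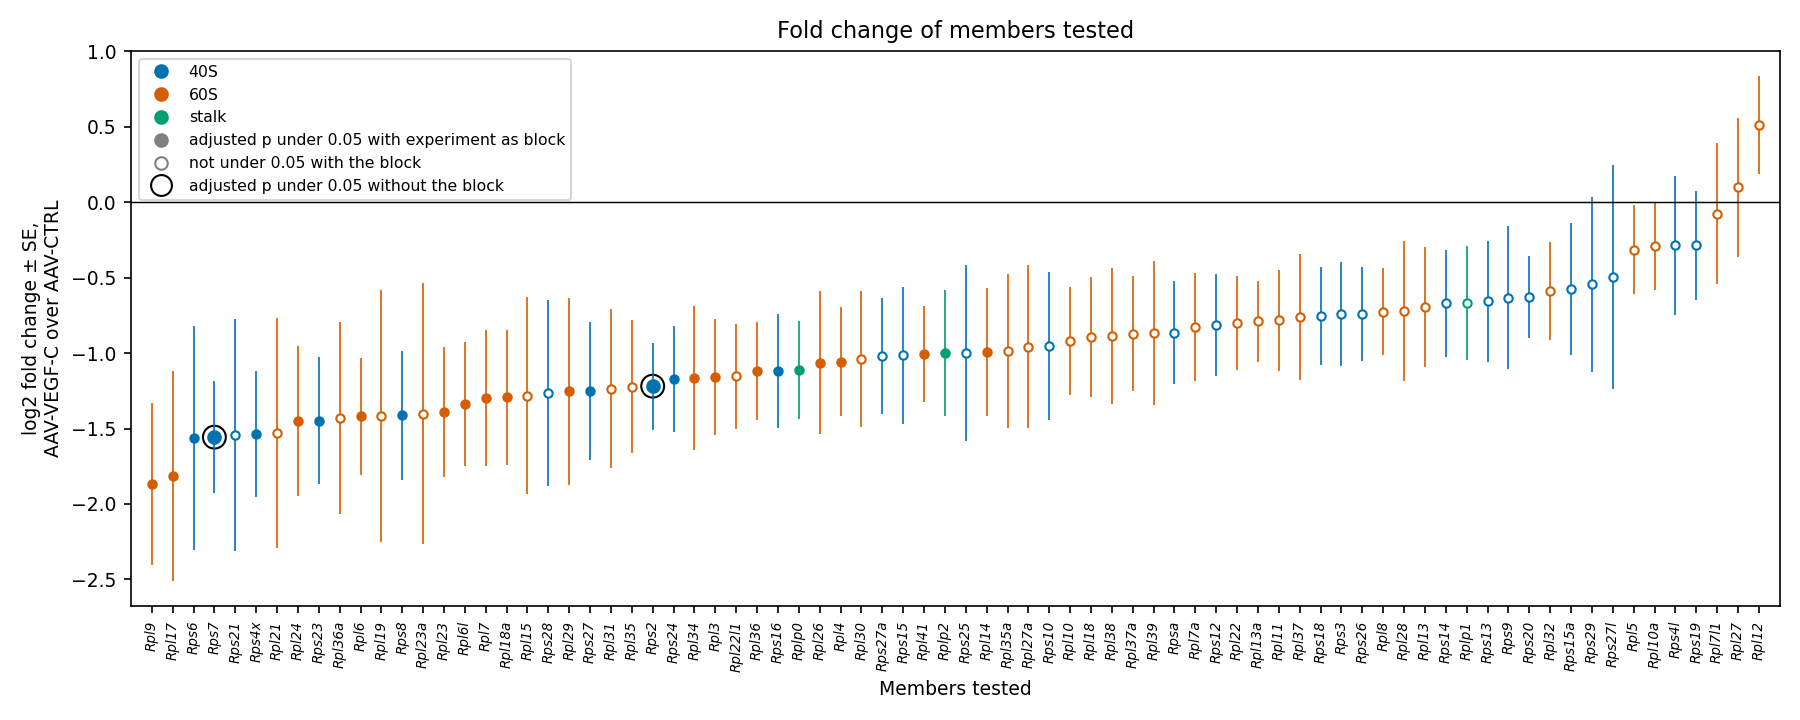
log2 fold change ± SE (AAV-VEGF-C over AAV-CTRL, edgeR, 3 libraries a group) of the tested members drawn, coloured by subunit; filled points passed with the experiment as a block and ringed points passed without it. Rpl27 and Rpl12 lie above 0 and the other points below it.

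Among tested members averaging 5 TPM or more, the largest negative log2 fold changes were those of Rpl9 (-1.87 ± 0.54), Rpl17 (-1.81 ± 0.69), Rps6 (-1.56 ± 0.74) and Rps7. Rpl17, a protein of the exit tunnel, was at 24.4, 27.2 and 58.6 normalised CPM in AAV-CTRL and at 0, 15.8 and 11.5 in AAV-VEGF-C. Rps6, the substrate of S6 kinase downstream of mTOR, was at 38.9, 40.6 and 76.6 in AAV-CTRL and at 0, 15.1 and 31.1 in AAV-VEGF-C. Both passed with the block (adjusted p = 0.0442 and 0.0455). They were listed at 0 in AAV-VEGF-C 1, and with pseudogenes added they had log2 fold changes of -0.73 and -0.81. Rps6 with its copies was at 207, 254 and 278 normalised CPM in AAV-CTRL and at 102, 133 and 185 in AAV-VEGF-C, none of them at 0 and without overlap.

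Just 2 tested members had a positive log2 fold change. Rpl12, a protein at the stalk base, was at 40.5, 53.7 and 29.2 normalised CPM in AAV-CTRL and at 43.9, 64.5 and 65.6 in AAV-VEGF-C, overlapping (0.51 ± 0.32, adjusted p = 0.339). Rpl27 was at 4.82, 6.23 and 8.53 against 9.24, 7.17 and 5.75 (0.10 ± 0.46, adjusted p = 0.924). Their own rows held 26.5% and 14.3% of the counts of their families. With the copies added the values became -0.16 ± 0.31 and -0.49 ± 0.38.

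Over all 81 tested members, adding the aligned pseudogenes left 76 with a negative log2 fold change, brought 76 nearer to 0 and moved the median to -0.59. The number without overlap between the groups went from 53 to 34, with no share of all genes counted after the addition. No member passed without the block, against 0.716% of genes called lower. For 74 members, among 79 with any pseudogene count, the own row took a lower share of its family in AAV-VEGF-C. The medians over all members were 84.3% in AAV-CTRL against 59.2% in AAV-VEGF-C. These families hold every aligned copy. Summed copies under 95% identity had a ratio of 6.83 between the groups, against 0.623 for those at 99% or more. A family limited to the nearest copies was not fitted, so a lower share need not be a shift of the gene's own reads. Members with little shared sequence were read apart: the 8 main forms with under 10% of stretches shared, among them Rps3, Rps21, Rpl4, Rpl8, Rpl22 and Rpl32, all had negative log2 fold changes, with a median of -0.75. The median was -1.02 for the 43 with 10% to under 100% shared and -0.99 for the 24 with all stretches shared. Rpl8, with no aligned pseudogene, was at -0.72 ± 0.29 (adjusted p = 0.147). Across the 75 main forms with a value Spearman's rho between the shared percentage and the log2 fold change was -0.13. The shared percentage went with the level itself (rho = -0.62 with mean AAV-CTRL TPM), so that members with more shared sequence were listed lower.

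**Figure D4:**
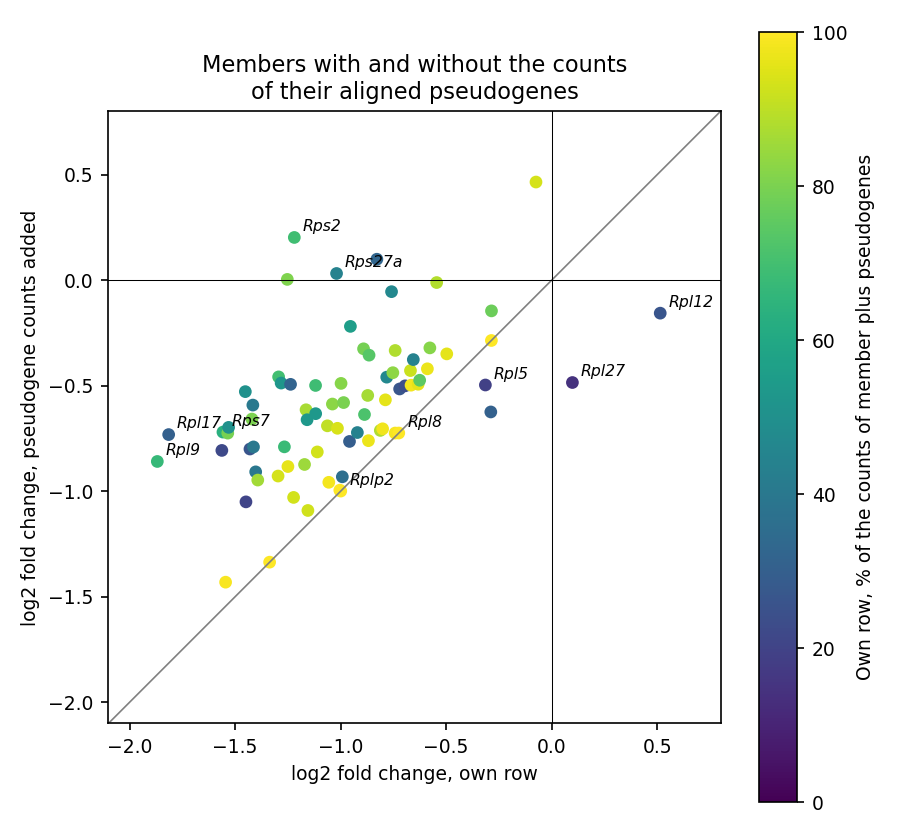
log2 fold change of tested members from their own rows (x) and with the counts of the aligned pseudogenes added (y), coloured by the percentage of family counts in the own row; the grey line marks equal values. Most points lie above the line, Rps2 is at -1.22 and 0.20, and Rpl12, Rpl27 and Rpl5 lie below it.

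The stalk genes were described as a set. Rplp0, the scaffold of the stalk, was at 272, 334 and 339 normalised CPM in AAV-CTRL and at 97.1, 148 and 190 in AAV-VEGF-C (-1.11 ± 0.32, adjusted p = 0.0695; 0.0284 with the block). Rplp1, which binds Rplp0 as a dimer with Rplp2, was at 253, 359 and 289 against 102, 221 and 241 (-0.67 ± 0.38, adjusted p = 0.29; 0.137 with the block). Rplp2 was at 108, 165 and 180 against 34.7, 88.9 and 98.6 (-0.999 ± 0.42, adjusted p = 0.167; 0.0373 with the block). The groups did not overlap for any of the 3.

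Some paralog forms replace a main form in certain tissues, and most paralog forms were scarce here. Rpl22l1, the paralog of Rpl22, was the highest after Rpl6l, at 15.6, 14.1 and 26.1 TPM in AAV-CTRL against 3.70, 4.28 and 5.31 TPM in AAV-VEGF-C (fold change on the log2 scale -1.16 ± 0.35, adjusted p = 0.0749; 0.0751 with the block). Rpl22 was at 71.3, 121 and 290 TPM in AAV-CTRL against 19.9, 41.6 and 54.9 TPM in AAV-VEGF-C (-0.80 ± 0.31, adjusted p = 0.143). Rps27l, a p53 target, was at 2.41, 6.25 and 9.61 TPM and at 0, 2.85 and 2.53 TPM, against 32.9, 51.8 and 218 and 2.60, 12.0 and 20.6 TPM for Rps27 (-1.25 ± 0.46, adjusted p = 0.123; 0.0443 with the block). Rpl7l1 (-0.07 ± 0.47, adjusted p = 0.947) and Rps4l (-0.29 ± 0.46, adjusted p = 0.732) were the paralog forms nearest to no change, against -1.30 ± 0.45 for Rpl7 (0.109; 0.0201 with the block) and -1.53 ± 0.42 for Rps4x. The difference between a paralog and its parent was not tested.

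The 4 members that did not pass the filter were all paralog forms. Rpl3l, the heart and skeletal muscle form of Rpl3, had counts of 0, 0 and 1 in the control libraries against 1, 1 and 9 in AAV-VEGF-C. Rpl10l and Rpl39l, known from the testis, had 1 and 2 counts in all of AAV-CTRL, and their counts in AAV-VEGF-C (12.37 and 5) were all in AAV-VEGF-C 3. Rpl32l had 2.85 counts in AAV-VEGF-C 3, 7.42 in AAV-CTRL and none elsewhere. The main forms were listed far higher, at 42.2 to 137 TPM for Rpl3, 27.8 to 105 TPM for Rpl10 and 18.6 to 96.5 TPM for Rpl39 in AAV-CTRL. Their log2 fold changes were -1.16 ± 0.38 (adjusted p = 0.097; 0.0253 with the block), -0.92 ± 0.36 (0.141) and -0.87 ± 0.48 (0.276).

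Members with functions beyond the ribosome were read by their own values. Rps19, mutated in Diamond-Blackfan anaemia, was at 37.9, 48.7 and 85.2 normalised CPM in AAV-CTRL and at 39.3, 54.5 and 46.3 in AAV-VEGF-C, overlapping (-0.29 ± 0.36, adjusted p = 0.652). Rpl5 and Rpl11, which bind MDM2 together with 5S RNA, were at -0.31 ± 0.30 (adjusted p = 0.533) and -0.78 ± 0.33 (0.175), and both overlapped. Rpl5 was at 47.2, 54.6 and 47.3 in AAV-CTRL and at 27.7, 38.0 and 51.5 in AAV-VEGF-C. Rps27a, which is made as a fusion with ubiquitin, was at 23.6, 31.3 and 46.4 against 11.6, 22.2 and 14.95, without overlap (-1.02 ± 0.38, adjusted p = 0.131), and at 0.03 ± 0.35 with its copies added. Rpsa was at 335, 398 and 367 against 129, 191 and 280, without overlap (-0.87 ± 0.34, adjusted p = 0.149).

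Neighbouring lists of the translation machinery were read from the same fit. The 6 cytosolic ribosomal protein genes outside the naming pattern had a median log2 fold change of -0.72, 5 of 6 negative and none called, from Rps3a1 (-1.99 ± 0.86, adjusted p = 0.176, listed at 0 in AAV-VEGF-C 1) to Rps27rt (0.04 ± 0.74). The 16 elongation factors and other TOP mRNAs had a median of -1.01, all negative and none called, with Eef1a1 (-1.24 ± 0.41, adjusted p = 0.0947) and Npm1 (-1.38 ± 0.38, adjusted p = 0.0578) among them. Their summed CPM was 3786 ± 820 in AAV-CTRL against 1809 ± 711 in AAV-VEGF-C (ratio 0.478, no overlap). Of the 24 initiation factors, all were negative with a median of -0.65, and 2 were called lower, Eif2s2 (-1.32 ± 0.33, adjusted p = 0.0408) and Eif4a2 (-1.27 ± 0.31, adjusted p = 0.0373), which encode a subunit of eIF2 and an RNA helicase.

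Several other lists lay nearer to the median of all genes, and they were also listed at lower levels. The 36 ribosome biogenesis genes had a median of -0.27 (27 negative, none called). The 78 mitochondrial ribosomal protein genes had -0.28 (54 negative, none called). The 20 genes of mTOR and TOP regulation had -0.30 (15 negative, none called). The 7 tested of 10 snoRNA host genes, listed for their TOP starts, had -0.33 (6 negative, none called). In this order their median AAV-CTRL levels were 6.41, 6.05, 9.59 and 13.9 TPM. The levels were 83.5 TPM for the tested members, 45.6 TPM for elongation factors and other TOP mRNAs, and 30.6 TPM for initiation factors. The part of level in these medians was not tested. Among the 68 tested pseudogenes named after a ribosomal protein gene, 34 were negative, the median was -0.01 and 1 was called higher. A difference between any of these lists and the members was not tested.

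**Figure D5:**
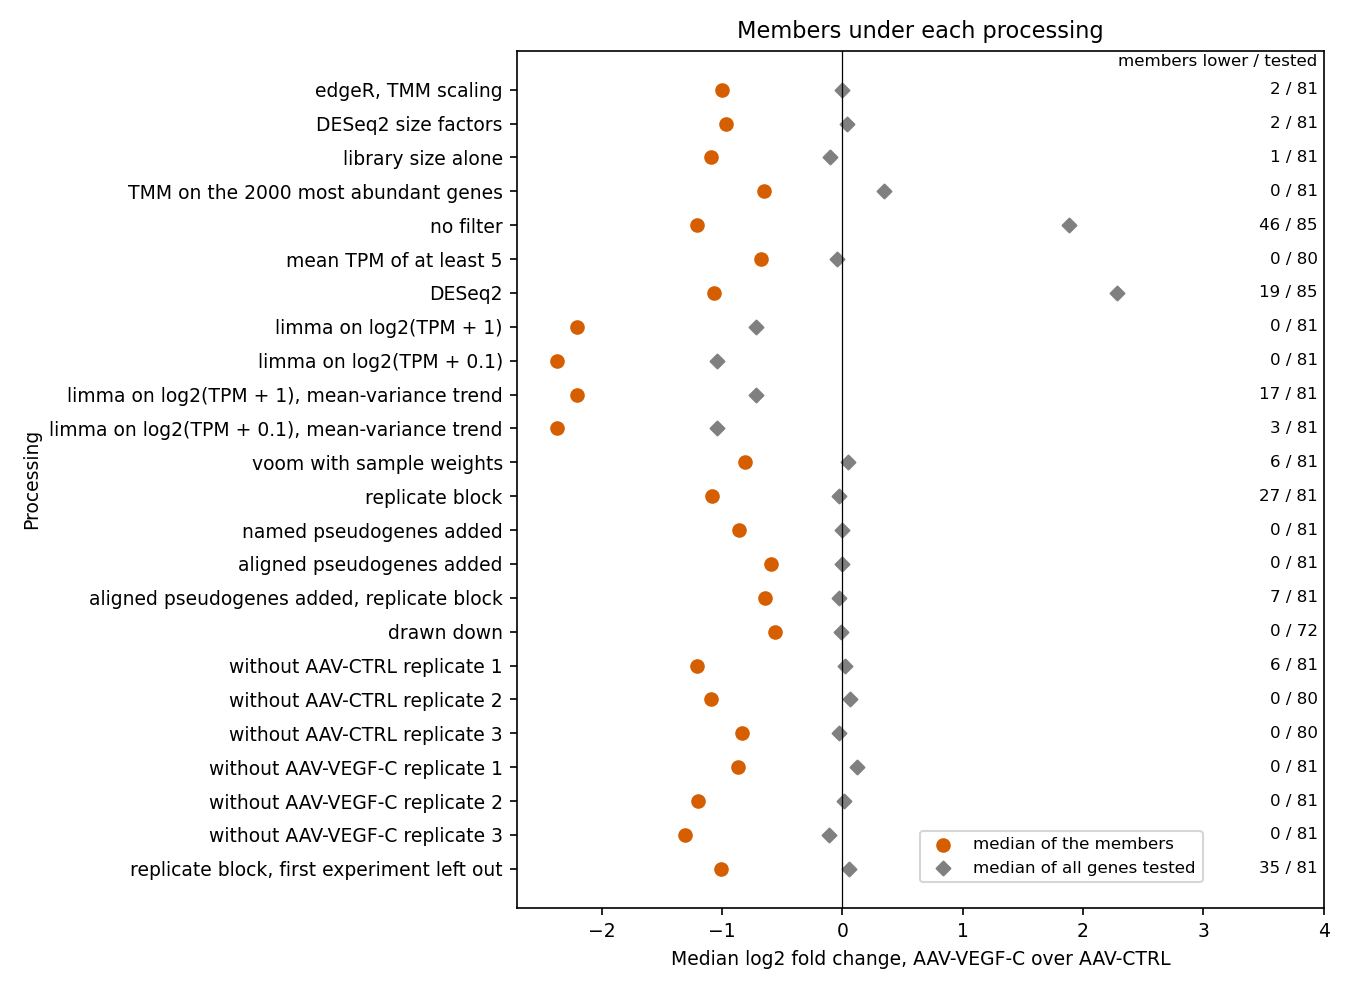
Median log2 fold change of the members (orange) and of all genes tested (grey) under each processing, with the number of members called lower over those tested at the right. The members' median is negative in every row, from -2.37 to -0.56, while the number called runs from 0 to 46.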

How the data were processed

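The authors deposited expected counts per gene, which need not be whole and are not scaled between libraries, and TPM, corrected for length and library total. Per the labels, total RNA libraries of pooled animals were processed with FastQC, Trimmomatic, DRAGEN and Picard on mm10. How reads shared by several genes were split, and whether strand or molecular identifiers were used, is not given in the sources used here. Of 55401 identifiers, 98.1% equal GENCODE M21 (GRCm38) with version.

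Counts were rounded, filtered by filterByExpr, TMM-scaled and tested by the quasi-likelihood test of edgeR 4.0.16 (R 4.3.3), with Benjamini-Hochberg adjustment over all genes at 0.05 and no covariate. The script was tested on simulated data, where most genes given the smaller fold change, itself larger than the median change of the members, were not called. DESeq2 1.42.0 and limma 3.58.1 were alternatives. "Normalised CPM" uses TMM factors, and "CPM" the library total. Pseudogenes were aligned to member coding sequences with blastn 2.17.0 (at least 80% identity over at least 50%). No p was computed for sums or medians. Nothing shows that libraries are more than separate pools, so p-values measure the spread between them.

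The labels tie replicate numbers to experiments. Across genes, the departures from the group mean correlated at 0.387, 0.277 and 0.169 for libraries sharing number 1, 2 and 3. Libraries of unlike number correlated at up to 0.226 (AAV-CTRL 3 with AAV-VEGF-C 2), above the value for number 3. These values were taken without TMM factors, and depth rose from number 1 to number 3 in both groups. The part of depth in them was not tested, so they do not settle whether the numbers pair the libraries. The block follows the labels alone. Libraries of a group differed by more than sampling noise (chi-square of at least 7.70 per degree of freedom).

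Members, lists and rules were chosen with earlier results of these data known. Named members are those with an adjusted p under 0.05, the 3 highest per subunit, the largest 4 positive (2 existed) and 4 negative log2 fold changes at a mean TPM of at least 5, the stalk, listed paralogs with parents, and Rpsa, Rps27a, Rps6, Rps19, Rpl5 and Rpl11. Others were named after their values were seen: Rps23, Rpl4, Rpl6l, Rpl14, Rpl41 and Rps21 as the calls of a small count, Rpl32l as a member not tested, Rpl7a for its copies, Rpl19 as an example pair, the members listed at 0 in AAV-VEGF-C 1, and those with few shared stretches. Protein sequences were not analysed here. A few members enter the counts and medians but are not reported here by name and are not drawn in the plots of single members.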

Additional observations from a re-analysis of the deposited data

How the results depend on the processing

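The median log2 fold change of the members was negative under all 23 alternatives, and below the median of all genes in each. Its size varied around the -0.998 given above, from -2.37 in limma (pseudocount 0.1) to -0.562. The latter came from libraries drawn down to equal depth, where 67 of 72 members were negative. Restricting the fit to genes averaging 5 TPM or more gave -0.675, with 73 of 80 members negative. How many members passed depended on the fit. Against 2 called lower, there was 1 with library size alone, where 53 of all genes were called lower. There were 6 with voom and sample weights, 19 with DESeq2 and 46 without a filter, against the shares given above. TMM on the 2000 most abundant genes gave 0 members and 8 of all genes. It moved the median of all genes to 0.35 and that of the members to -0.65. Adding named or aligned pseudogenes gave 0 members, against 121 and 124 of all genes. At a mean TPM of at least 5, and with all libraries drawn down to the smallest total, 0 members and 0 of all genes were called lower. The replicate block gave 27, or 35 without the first experiment, and 7 with aligned pseudogenes added. Without 1 library the number ran from 0 to 6: leaving out AAV-CTRL 1 gave 6 and leaving out any of the other 5 gave 0, and without AAV-CTRL 2 or AAV-CTRL 3 no gene of the whole table passed. Without AAV-VEGF-C 1, 2 or 3, respectively, 43, 0 and 8 of all genes were called lower. Members called higher were 2 without a filter (Rpl3l and Rpl10l) and 1 with DESeq2 (Rpl3l), all from counts of at most 12.37 in a library.

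On log2 TPM, limma gave medians of -2.21 with a pseudocount of 1 and -2.37 with 0.1, on a scale where all genes had medians of -0.72 and -1.04. It called 0 members with either pseudocount. Run again with a mean-variance trend, a choice made after that output had been seen, it called 17 and 3. The untrended fit called 1 gene higher and 1 lower of all genes at a pseudocount of 1, and the trended fit 1112 and 434. At a pseudocount of 0.1 the untrended fit called 628 higher and 15 lower, and the trended fit 1281 and 163. The share of members with a TOP tract was 68.3% in the wider window.

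Some named members changed direction, and none was called in its turned direction. Rps2 was at 0.202 with aligned pseudogenes added and 0.191 with the block as well, and Rps27a at 0.0316 with aligned pseudogenes. Rpl12 was at -0.926 and -0.987 in limma (pseudocounts 1 and 0.1, with or without the trend), -0.156 with aligned pseudogenes and -0.192 with the block as well. Rpl27 was at -0.922 and -1.07 in limma, -0.0447 with library size alone, -0.150 without a filter, -0.0214 in voom, -0.753 with named pseudogenes, -0.485 with aligned ones, -0.570 with the block as well and -0.283 with the block without the first experiment. With TMM on abundant genes and at a mean TPM of at least 5, respectively, Rpl5 was at 0.0425 and 0.0266, Rps19 at 0.0629 and 0.0566, Rps4l at 0.0564 and 0.0854, and Rpl7l1 at 0.296 and 0.307. Drawn down, Rpl5 was at 0.386 and Rpl7l1 at 0.485. Rpl7l1 was also at 0.0478 with named pseudogenes, 0.465 with aligned ones and 0.287 with the block as well. With 1 library left out, Rpl27 ran from -0.127 (without AAV-CTRL 1) to 0.235, Rpl7l1 from -0.729 to 0.217 (without AAV-VEGF-C 3), Rps19 from -0.558 to 0.0114 (without AAV-CTRL 3) and Rps4l from -0.667 to 0.0114 (without AAV-CTRL 1). The cause of these changes was not tested. The 8.13 counts of a median main form in AAV-VEGF-C 1 limit what single members can show there.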
